A study of Mus musculus with 6 samples.

Results

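Adipocytes are the cells of fat tissue, and in the mouse the ovary lies in a pad of white fat from which it is dissected. The 8 genes described here, Adipoq, Lep, Retn, Cfd, Fabp4, Cidec, Plin1 and Plin4, are genes of adipocytes and of the fat around the ovary, and all 8 were among the 18280 genes of the deposited table. They were taken by symbol from a list chosen by measured values of these same libraries, in particular the high level of Cfd and other fat genes in 1 TG library. Their levels and genotype differences are therefore a description and support nothing by themselves.

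Fat cells store triglyceride in lipid droplets and secrete hormones, the adipokines, that report energy stores to other tissues. Perilipins and CIDE proteins coat the droplet, govern access of lipases to it and let droplets fuse. Droplets are not particular to fat cells: steroid-making cells of the ovary also keep them, filled with cholesterol esters, so a droplet gene can be read in an ovary with no fat attached, whereas adipokine genes such as Adipoq and Lep are made mainly by adipocytes.

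RNA was sequenced from ovaries of 3 mice with a Dennd1a transgene (genotype Dennd1aTG, here TG) and 3 wild-type mice (WT), all taken 44 h after an injection of PMSG, a gonadotropin with FSH activity that drives follicle growth. The study asks how the transgene changes the response of granulosa cells to FSH. The labels name no strain, age, litter or construct, and they do not say how the ovary was trimmed of fat, bursa and oviduct. Each animal gave 1 library, named TG1 to TG3 and WT1 to WT3 by the numbers in the labels. Dennd1a measured between 570 and 588 CPM (counts scaled to a common library size) in the TG libraries, against 39.5 to 49.3 CPM in the WT libraries, so every library carried the level its label calls for. Libraries held between 17075484 and 18516171 estimated counts, and libraries of the same genotype were further apart than sampling noise gives (chi-square over degrees of freedom, 7.92 to 21.9). Granulosa markers summed to between 6279 and 7685 CPM, theca markers to between 25160 and 30570 CPM and oocyte markers to between 146 and 299 CPM over the 6 libraries, so the defining genes of ovary were present in each. In a bulk sample fewer cells of a type and less RNA per cell cannot be told apart. Across the table, 149 of 14124 tested genes (1.05%) passed at an adjusted p under 0.05 in edgeR's quasi-likelihood test of TG over WT, 0.0354% as higher and 1.02% as lower in TG.

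The stretches of genome just before the start sites of these genes are shown because 6 of the 8 genes stood high together in the same library while Plin1 and Plin4 did not. Promoters of 7 of the 8 genes were found in the RefSeq table for build GRCm38.p6, to which mm10 corresponds, and the gene with none is Fabp4. The 250 bases before the start site were searched on both strands for 7 motifs. These were AGGTCA, the core read by many nuclear receptors, the direct repeat of that core with 1 base between the copies, bound by PPAR with RXR, TTGCNNAA for C/EBP factors, CCAAT, the TATA box TATAAA, the E-box CACGTG, and TCACNCCA, read by SREBP factors. AGGTCA lies within the direct repeat, and a TTGCGCAA reads as a C/EBP match on both strands. Over all 32851 RefSeq promoters, AGGTCA occurred in 14.0%, the direct repeat in 0.0335%, TTGCNNAA in 9.56%, CCAAT in 33.8%, TATAAA in 12.4%, CACGTG in 6.02% and TCACNCCA in 3.67%. Capitals mark every match to a motif, and a promoter printed with no capitals has none of the 7 in this window.
Cfd, chr10:79890603-79890852, plus strand: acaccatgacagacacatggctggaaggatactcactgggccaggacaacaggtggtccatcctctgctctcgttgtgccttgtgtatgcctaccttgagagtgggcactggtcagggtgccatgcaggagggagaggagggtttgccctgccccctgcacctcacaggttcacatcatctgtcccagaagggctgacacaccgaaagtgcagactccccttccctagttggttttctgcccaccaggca
Adipoq, chr16:23146286-23146535, plus strand: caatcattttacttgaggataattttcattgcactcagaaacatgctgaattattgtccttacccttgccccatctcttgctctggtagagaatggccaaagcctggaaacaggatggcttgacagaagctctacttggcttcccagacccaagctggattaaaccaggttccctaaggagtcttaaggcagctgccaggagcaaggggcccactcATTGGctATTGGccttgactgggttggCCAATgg
Lep, chr6:29059971-29060220, plus strand: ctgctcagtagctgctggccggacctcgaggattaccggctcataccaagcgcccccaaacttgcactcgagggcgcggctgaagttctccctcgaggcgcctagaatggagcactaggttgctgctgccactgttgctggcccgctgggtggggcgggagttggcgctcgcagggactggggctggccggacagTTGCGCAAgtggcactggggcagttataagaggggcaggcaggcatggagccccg
Plin1, chr7:79732777-79733026, minus strand: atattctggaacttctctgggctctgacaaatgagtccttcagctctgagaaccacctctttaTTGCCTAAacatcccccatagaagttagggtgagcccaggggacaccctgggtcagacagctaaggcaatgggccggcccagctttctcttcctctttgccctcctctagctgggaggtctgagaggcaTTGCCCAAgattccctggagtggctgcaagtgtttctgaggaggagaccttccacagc
Plin4, chr17:56109783-56110032, minus strand: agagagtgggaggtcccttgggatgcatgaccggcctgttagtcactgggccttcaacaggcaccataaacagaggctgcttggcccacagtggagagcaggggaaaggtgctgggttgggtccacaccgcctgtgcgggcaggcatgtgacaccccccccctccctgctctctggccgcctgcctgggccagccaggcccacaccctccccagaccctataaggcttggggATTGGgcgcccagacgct
The C/EBP motif was found before Lep (bases 55 to 48 before the start site), before Plin1 (bases 187 to 180 and 58 to 51) and before the downstream of the 2 start sites of Cidec (bases 198 to 191). CCAAT was found before Adipoq, where it occurred 3 times in the last 34 bases, and before Plin4. Retn and the upstream start site of Cidec, like Cfd, had no match. A match describes letters in the window and is not evidence that a factor binds, and no match says only that these letters are not there.

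The adipokine genes were close to absent from 4 of the 6 libraries, higher in TG2 than in any other and raised to a lesser degree in WT3. Even in TG2 the level of Lep was low, at 0.976 CPM. Adipoq encodes adiponectin, which raises insulin sensitivity, and lies on chromosome 16 (23146536 to 23157968, GRCm38). It had 8, 245 and 4 counts in TG1 to TG3, against 4, 2 and 26 counts in WT1 to WT3, or 0.444, 14.1 and 0.233 CPM in TG and 0.216, 0.109 and 1.53 CPM in WT. TG2 alone set the TG mean, WT3 alone set most of the WT mean, and the genotypes overlapped. Lep, on chromosome 6 (29060221 to 29073876), encodes leptin, the hormone that signals fat stores to the hypothalamus. It had 2, 17 and 2 counts in TG1 to TG3, against 1, 0 and 4 counts in WT1 to WT3. At these counts only TG2 stood clear of the rest, and the ratio of TG2 to WT3 was 4.16 with a 95% exact binomial interval of 1.36 to 17.0, which covers counting error only.

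Retn, on chromosome 8 (3655770 to 3659818), encodes resistin, which in mice is secreted by fat cells and opposes insulin action. Retn measured 0.167, 14.5 and 0.0583 CPM in TG1 to TG3, against 0.162, 0.164 and 1.94 CPM in WT1 to WT3. Cfd, on chromosome 10 (79890853 to 79892655), encodes adipsin, the serine protease complement factor D that fat supplies to the alternative complement pathway. It measured 1.28, 86.8 and 1.52 CPM in TG1 to TG3, against 0.916, 0.383 and 9.45 CPM in WT1 to WT3. For both genes TG2 was the highest library and WT3 the next, and the remaining 4 libraries lay together at the bottom. Of the summed CPM over all 6 libraries, TG2 held 85.3% for Retn, 86.5% for Cfd and 84.8% for Adipoq.

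Fabp4, the fatty-acid carrier aP2 of adipocytes that endothelial cells and macrophages also make, had a floor in every ovary. On chromosome 3 (10204342 to 10208616), it measured 3.996, 48.1 and 5.77 CPM in TG1 to TG3, against 3.50, 3.94 and 5.81 CPM in WT1 to WT3. TG2 was 8.27-fold above the next library, whereas WT3 and TG3 were level. Endothelial markers, such as Pecam1 at 115 CPM in TG2 and 129 to 212 CPM in WT, summed to 681 CPM in TG2, the lowest of the 6 libraries. Macrophage markers summed to 258 CPM in TG2, also the lowest of the 6, and the part of either cell type in the Fabp4 level was not tested.

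Among the droplet proteins, Cidec followed the adipokines and the perilipins did not. Cidec, which in white fat lets droplets fuse into a single large one, lies on chromosome 6 (113424634 to 113435760). It had 5, 107 and 6 counts in TG1 to TG3, against 4, 0 and 19 counts in WT1 to WT3, with TG2 and WT3 again the highest 2 libraries. Plin1, the perilipin that guards the droplet of fat cells and of steroid-making cells, lies on chromosome 7 (79721164 to 79732904). It measured 18.8, 20.8 and 19.2 CPM in TG1 to TG3, against 14.1, 10.9 and 16.9 CPM in WT1 to WT3. The TG libraries were within 2 CPM of each other and all lay above the WT libraries, and TG2 was only 1.08-fold above the next. Plin1 was the only gene among the 8 whose groups did not overlap, which held for 8.25% of all tested genes, and for 3.21% with TG higher.

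Plin4, a perilipin that coats newly formed droplets, lies on chromosome 17 (56100587 to 56109948) and had the highest FPKM of the 8, a level per length, in every library except TG2. It measured 201, 358 and 242 CPM in TG1 to TG3, against 292, 345 and 198 CPM in WT1 to WT3. Here TG2 and WT2 were high together, WT3 was the lowest, and the genotypes overlapped throughout. Lipid synthesis genes outside the 8 summed to 8160 CPM in TG2 and 8725 CPM in WT2, the highest 2 libraries, and to 6609 CPM in WT3, the lowest. Plin4 ran closer to that sum than to the adipokines. Most of the sum came from Me1 and Scd2, at 2601 and 2590 CPM in TG2 and 2986 and 2944 CPM in WT2. It therefore does not speak for each gene of the list.

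**Figure D1:**
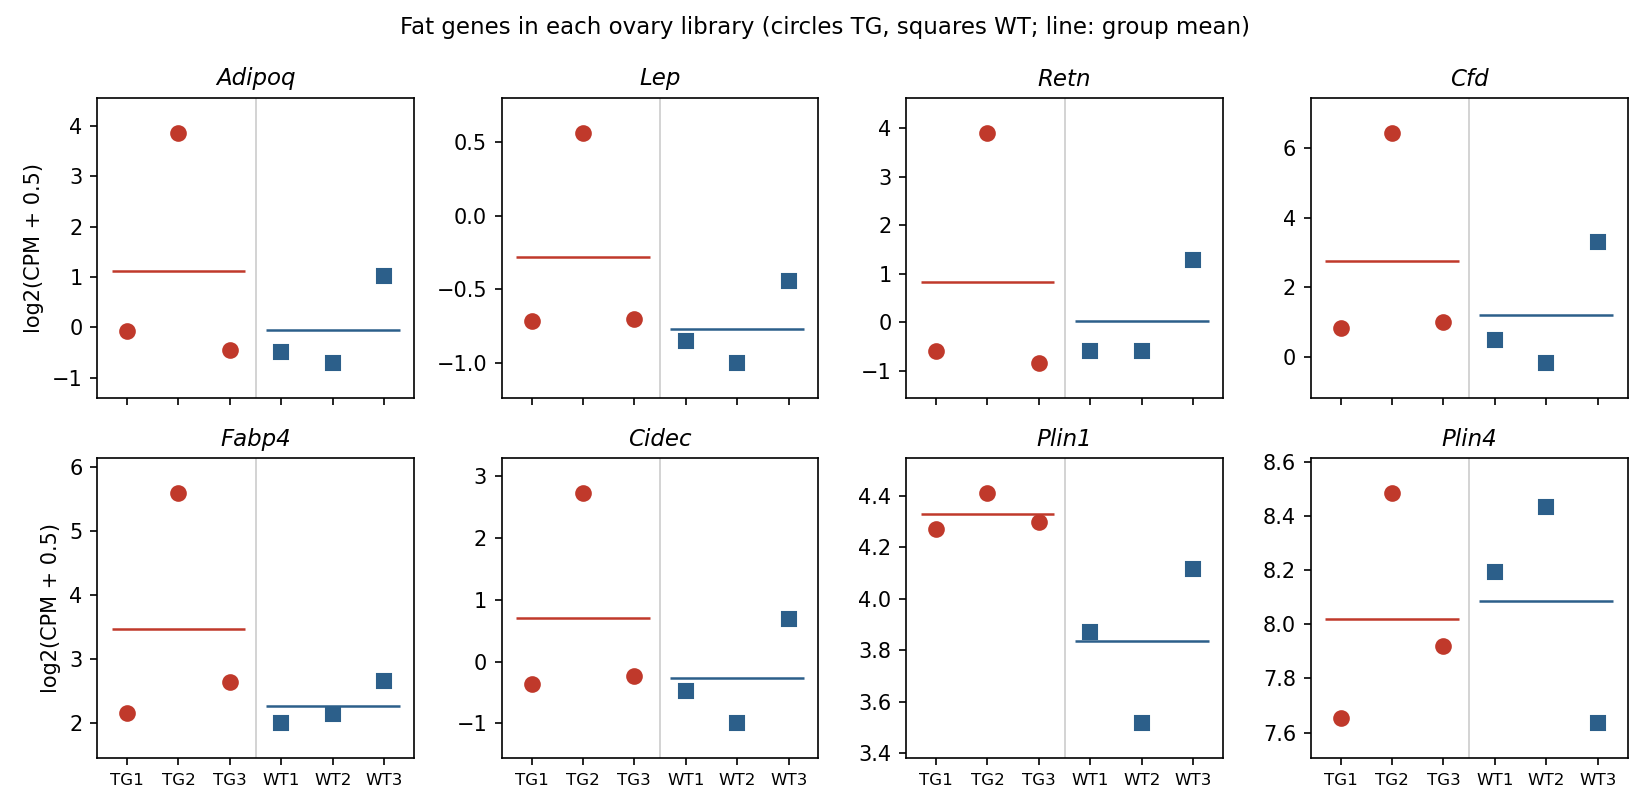
CPM of each of the 8 genes in each library on a log2(CPM + 0.5) scale, with TG1 to TG3 as circles, WT1 to WT3 as squares and each genotype's mean of the log values as a line. Each panel has its own vertical range. TG2 is the highest library in all 8 panels and WT3 the next in 6, whereas Plin1 lies between 18.8 and 20.8 CPM in all TG libraries and Plin4 is high in TG2 and WT2.

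Compared per length, as the deposited FPKM allow, the genes changed rank between libraries. In TG2 the order was Cfd at 113 FPKM, Fabp4 at 100.1, Plin4 at 59.8, Retn at 34.4, Adipoq at 13.1, Plin1 at 12.1, Cidec at 3.94 and Lep at 0.31 FPKM. By the median of the other 5 libraries it was Plin4 at 40.4 FPKM, Plin1 at 9.83, Fabp4 at 8.63, Cfd at 1.72, Retn at 0.40, Adipoq at 0.22, Cidec at 0.18 and Lep at 0.04 FPKM. In those 5 libraries the ranges of neighbours overlapped from Plin1 down to Lep. Cfd lay between 0.50 and 12.4 FPKM, Retn between 0.14 and 4.67, Adipoq between 0.10 and 1.43, Cidec between 0 and 0.72 and Lep between 0 and 0.08 FPKM. Within each of these libraries Cfd was above Retn, Adipoq and Cidec, and Lep was lowest, level with Cidec at 0 in WT2. Neighbours that changed places between libraries were Plin1 and Fabp4, Fabp4 and Cfd, Retn and Adipoq, and Adipoq and Cidec. Their order is one of medians only. Cfd therefore went to the top of the list in TG2, while Plin4 led in the others.

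The ratio of TG2 to WT3 in CPM differed between genes, with intervals that cover counting error only. It was 9.22 for Adipoq (95% exact binomial interval 6.14 to 14.4), 9.19 for Cfd (7.80 to 10.9), 7.47 for Retn (5.18 to 11.1) and 5.51 for Cidec (3.36 to 9.51), and the intervals of these 4 genes overlap. Lep, at 4.16, has an interval that overlaps them too. Car3, a fat gene outside the 8, had 5.63 (4.94 to 6.44), below the interval of Cfd. The ratio was 1.23 for Plin1 (1.05 to 1.45) and 1.81 for Plin4 (1.73 to 1.89). There were 2.88, 6.17 and 6.5 Cfd counts per Adipoq count in TG1 to TG3, against 4.25, 3.5 and 6.19 in WT1 to WT3. Adipoq had only 8, 4, 4 and 2 counts in TG1, TG3, WT1 and WT2, so those ratios are too uncertain to compare. Cfd counts per Fabp4 count were 0.319, 1.81 and 0.263 in TG1 to TG3, against 0.262, 0.0972 and 1.63 in WT1 to WT3. That ratio was highest in TG2 and WT3. For Fabp4 the ratio of TG2 to WT3 was 8.27 (6.71 to 10.3), among those of Adipoq, Cfd and Retn. Measured instead from the mean of TG1, TG3, WT1 and WT2, Fabp4 stood 43.8 CPM above it in TG2 and 1.51 CPM in WT3. By the same measure Cfd stood 85.8 CPM above it in TG2 and 8.43 CPM in WT3.

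The counts of genes highest in TG2 are given beside those of the whole table. All 8 were highest in TG2, which held for 18.6% of the 14124 tested genes and for 18.3% of the 15680 genes with at least 15 counts in all. For 6 of the 8 WT3 was also the second highest, against 4.33% of tested genes. TG2 exceeded each of the other libraries at least 2-fold for 6 of the 8, against 0.198% of tested genes and 0.395% of those with at least 15 counts. It exceeded them at least 5-fold for 5 of the 8, against 0.0354% of tested genes and 0.0893% of those with at least 15 counts. Since a high level in TG2 is what brought these genes together, nothing is read from these shares.

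The genotype differences of Adipoq, Lep, Retn, Cfd, Cidec and Fabp4 rested on TG2, which also moved Plin4 more than any other single library did. The count filter kept Cfd, Fabp4, Plin1 and Plin4, and the other 4 failed it, with 10 or more counts in TG2 and WT3 only for Adipoq, Retn and Cidec and in TG2 only for Lep. The kept genes are therefore not a fair sample of the 8. Of the 4 tested genes edgeR called 0 over all genes tested, with Fabp4 and Plin1 at an unadjusted p under 0.05, both higher in TG. That level was reached by 4.08% of all tested genes, and by 0.935% with TG higher. limma-voom also called 0 of these 4, and DESeq2 called 0 of the 2 it gave a p for, Plin1 and Plin4. Cfd averaged 29.9 ± 49.3 CPM over the TG animals, against 3.58 ± 5.09 CPM over the WT animals (SD, n = 3 per genotype). In edgeR this was 3.08 on the log2 scale (SE 1.51, adjusted p = 0.9997), with a 95% interval of -0.31 to 6.48. Without TG2 it was -1.34 (95% interval -3.86 to 1.17), and with TG2 and WT3 both left out it was 1.09. Its direction therefore depended on which of TG2 and WT3 were kept. Fabp4 averaged 19.3 ± 24.9 CPM over the TG animals, against 4.42 ± 1.23 CPM over the WT animals (SD, n = 3 per genotype), a difference of 2.13 on the log2 scale (SE 0.83, adjusted p = 0.959 in edgeR). Without TG2 its log2 fold change was 0.15 (95% interval -0.51 to 0.80).

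For the 4 genes that failed the filter, edgeR without a filter gave log2 fold changes of 3.01 for Adipoq, 2.72 for Retn, 2.36 for Cidec and 2.02 for Lep, none of which passed. Without TG2 these became -0.81 for Adipoq, -2.63 for Retn, -0.46 for Cidec and 0.27 for Lep. Without WT3 they were larger, at 4.86 for Adipoq, 4.85 for Retn, 4.29 for Cidec and 3.58 for Lep. With TG2 and WT3 both left out Adipoq had 1.03 (95% interval -0.77 to 2.84), Retn -0.50 (-2.73 to 1.73), Cidec 1.47 (-1.03 to 3.97), Lep 1.82 (-1.52 to 5.16) and Fabp4 0.39 (-0.24 to 1.02). These intervals are wide on either side of 0, so at this depth and number of animals a genotype difference of the low genes was not detectable and is not shown to be absent. Cfd then had 1.09 (95% interval 0.0003 to 2.18, adjusted p = 0.758 in edgeR), from counts of 23 in TG1 and 26 in TG3, against 17 in WT1 and 7 in WT2.

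Plin1 depended less on any 1 library, with log2 fold changes between 0.34 and 0.64 when each was left out in turn. It averaged 19.6 ± 1.05 CPM over the TG animals, against 13.97 ± 2.96 CPM over the WT animals (SD, n = 3 per genotype). With all 6 libraries the difference was 0.49 on the log2 scale (SE 0.16), with a 95% interval of 0.14 to 0.84. Its adjusted p was 0.576 in edgeR, so it did not pass over all genes, and it ranged from 0.215 to 0.9993 over the alternatives. With TG2 left out the log2 fold change of Plin1 was 0.44, and with TG2 and WT3 both left out it was 0.60 (95% interval 0.23 to 0.97). Plin4 averaged 267 ± 81.4 CPM over the TG animals, against 278 ± 74.3 CPM over the WT animals (SD, n = 3 per genotype). Its difference was -0.06 on the log2 scale, in a 95% interval of -0.59 to 0.47, and without TG2 it was -0.33 (95% interval -0.80 to 0.14). With TG2 and WT3 both left out the value of Plin4 was -0.53 (95% interval -0.83 to -0.22, adjusted p = 0.290 in edgeR).

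**Figure D2:**
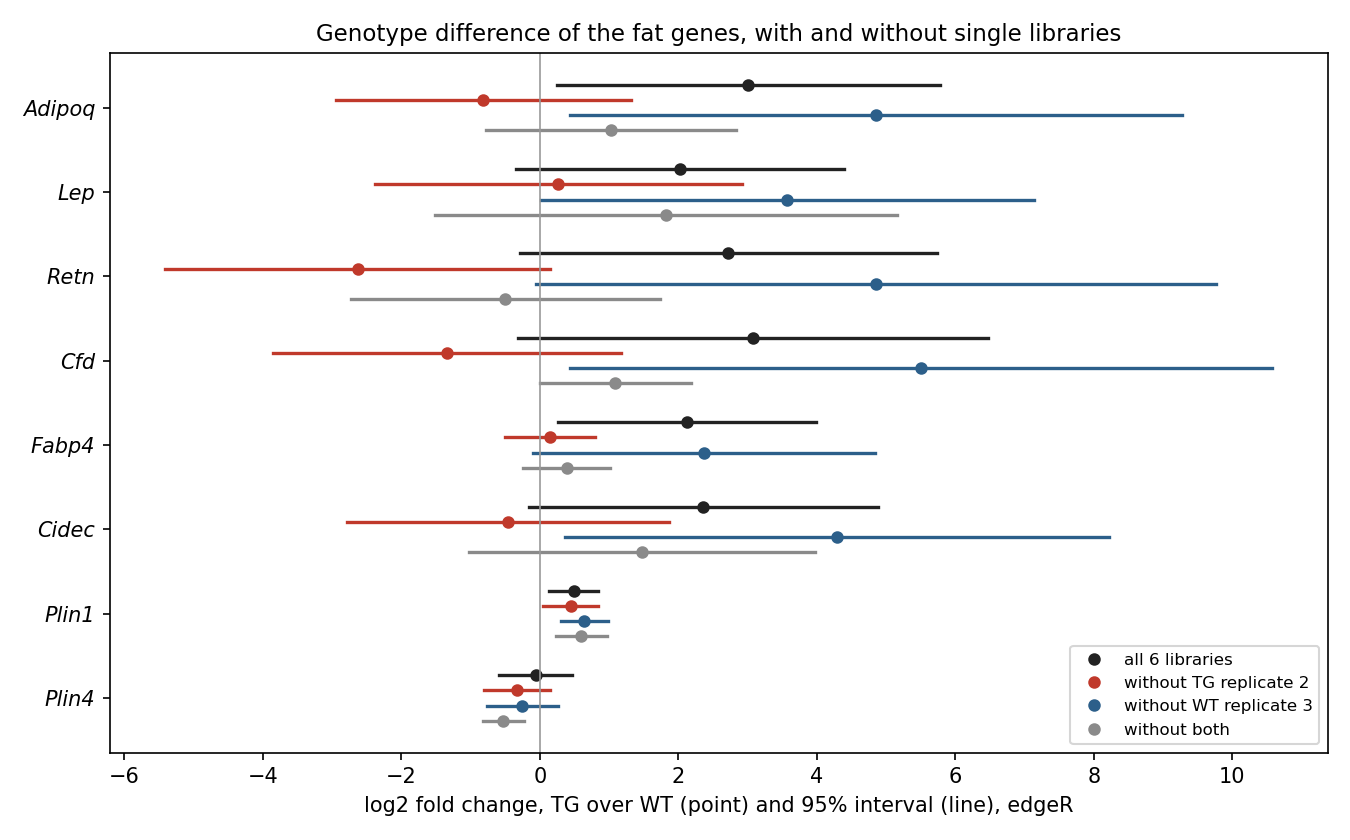
Log2 fold change of TG over WT for each of the 8 genes in edgeR, as points with 95% intervals as lines, from all 6 libraries and with TG2, WT3 or both left out. Adipoq, Lep, Retn and Cidec come from the fit without a count filter. The points of Cfd go from 3.08 with all libraries to -1.34 without TG2, while those of Plin1 stay between 0.44 and 0.64.

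Other genes of fat, from a list of 65 outside the 8 were described in the same libraries. Of the 64 in the table, 20 were highest in TG2, 8 were at least 2-fold above every other library there and 5 at least 5-fold. Among all genes with at least 15 counts these held for 18.3%, 0.395% and 0.0893%. The 64 also include genes with fewer than 15 counts, such as Ffar4 and Sfrp5. The lists were chosen with earlier results of these data known, so nothing is read from these shares. In the genotype test 0 of 54 tested genes passed in edgeR or limma-voom, and 0 of the 53 that DESeq2 tested. Cd36 and Npr3 were the 2 of 54 at an unadjusted p under 0.05 in edgeR, a level reached by 4.08% of all tested genes. The median log2 fold change of the 54 was 0.03, against 0.00 over all genes tested.

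White fat markers held 4 of the 8 that were at least 2-fold above every other library in TG2, Car3, Orm1, Adig and Rbp4. Car3, a carbonic anhydrase abundant in fat, measured 4.61, 87.9 and 6.65 CPM in TG1 to TG3, against 3.61, 3.17 and 15.6 CPM in WT1 to WT3, with TG2 the highest library and WT3 the next. The acute-phase gene Orm1 had 30 counts in TG2 and at most 1 in any other library, and Adig, which takes part in fat cell differentiation, had 21 counts in TG2 and at most 1 elsewhere. Rbp4, a retinol carrier, measured 1.67, 4.14 and 1.28 CPM in TG1 to TG3, against 1.35, 0.876 and 1.53 CPM in WT1 to WT3, so here WT3 was not raised. Mrap, which carries the ACTH receptor to the surface of fat and adrenal cells, Agt and Aoc3 belong to the same list but were above 100 CPM in every library, and their log2 fold changes were -0.05, -0.20 and 0.27. Other markers of the list at a lower level went different ways. Hp measured 14.9 CPM in TG2 and 7.93 CPM in WT3, and at most 5.89 CPM elsewhere. Sncg was highest in WT3 at 1.76 CPM and next in TG2 at 1.21 CPM, with at most 0.758 CPM elsewhere. Trarg1 measured 1.09 CPM in TG2 and was highest in WT2 at 2.298 CPM. Nrg4 measured 1.32 CPM in TG2 and 1.29 CPM in WT1, and Sfrp5 had 0 counts in TG2. Of the 10 tested markers 0 passed.

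Lipid synthesis genes differed widely in level, and 9 of the 15 were highest in TG2, against 18.3% of all genes with at least 15 counts. Nothing is read from this share either. Me1, malic enzyme, and Scd2, a stearoyl-CoA desaturase, had the highest FPKM of that list and log2 fold changes of -0.05 and -0.03. Thrsp, which promotes lipid synthesis, measured 8.21, 26.7 and 10.4 CPM in TG1 to TG3, against 7.22, 10.9 and 7.99 CPM in WT1 to WT3. Gpd1, which makes the glycerol phosphate of triglyceride, measured 7.35 CPM in TG2 and 3.11 CPM in WT3, and 2.21 CPM or less in the other 4 libraries. Pck1, the glyceroneogenic enzyme of fat, had 52 counts in TG2 and 6 in WT3, and 3 or fewer in the other 4. Scd1, a desaturase, had 374 CPM in TG2 and 214 CPM in WT2, the next library, and its log2 fold change of 0.40 was -0.06 without TG2. Fasn, fatty acid synthase, had a log2 fold change of 0.22, and 0.13 without TG2. Of the 14 tested genes 0 passed.

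Droplet, uptake and regulatory genes were not 2-fold higher in TG2 than in every other library, with the exception of Adrb3. No gene of the droplet and lipolysis list was highest in TG2, and its 11 tested genes had log2 fold changes between -0.27 for Plin5 and 0.23 for G0s2. Plin2, the perilipin of most cell types, measured 114.5, 100.3 and 124.5 CPM in TG1 to TG3, against 111.3, 90.7 and 117.2 CPM in WT1 to WT3, with Bscl2 at -0.03, Abhd5 at -0.17 and Mgll at -0.14 on the log2 scale. In the uptake list Lpl, which frees fatty acids from lipoproteins, had 76.9 CPM in TG2 and 60.8 CPM in WT3, the highest 2 libraries, within a range that began at 43.3 CPM. Cd36, a fatty-acid receptor, differed by 0.46 on the log2 scale (adjusted p = 0.929 in edgeR) and was highest in TG1, while Fabp5, Cav1 and Gpihbp1 had 0.01, 0.04 and -0.23.

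Pparg and Cebpa, the transcription factors that drive fat cell differentiation, are also made by granulosa and other ovarian cells. Pparg measured 73.0, 59.9 and 58.7 CPM in TG1 to TG3, against 59.8, 63.9 and 64.0 CPM in WT1 to WT3, and TG2 did not stand out. Cebpa and Cebpb had log2 fold changes of 0.05 and -0.01, Npr3 0.37, Irs1 0.22, Acvr1c 0.63 and Hcar1 -0.55. Adrb3, the adrenergic receptor of fat cells, was the gene of this list that followed the adipokines, with 24 counts in TG2, 4 in WT3 and 2 or fewer in the other 4 libraries. Of 4 tested brown fat genes 0 passed, and Dio2 was lowest in TG2, at 3.39 CPM. Elovl3 of the same list failed the count filter, with 5 counts in TG2, 6 in WT3 and 0 in every other library. Cox7a1, Prdm16 and Ppargc1a had log2 fold changes of -0.07, -0.28 and 0.84. The receptors through which the ovary could read adipokines, Adipor1 and Adipor2 for adiponectin and Lepr for leptin, had log2 fold changes of -0.07, -0.05 and 0.14, and Cdh13, which binds adiponectin, 0.30.

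**Figure D3:**
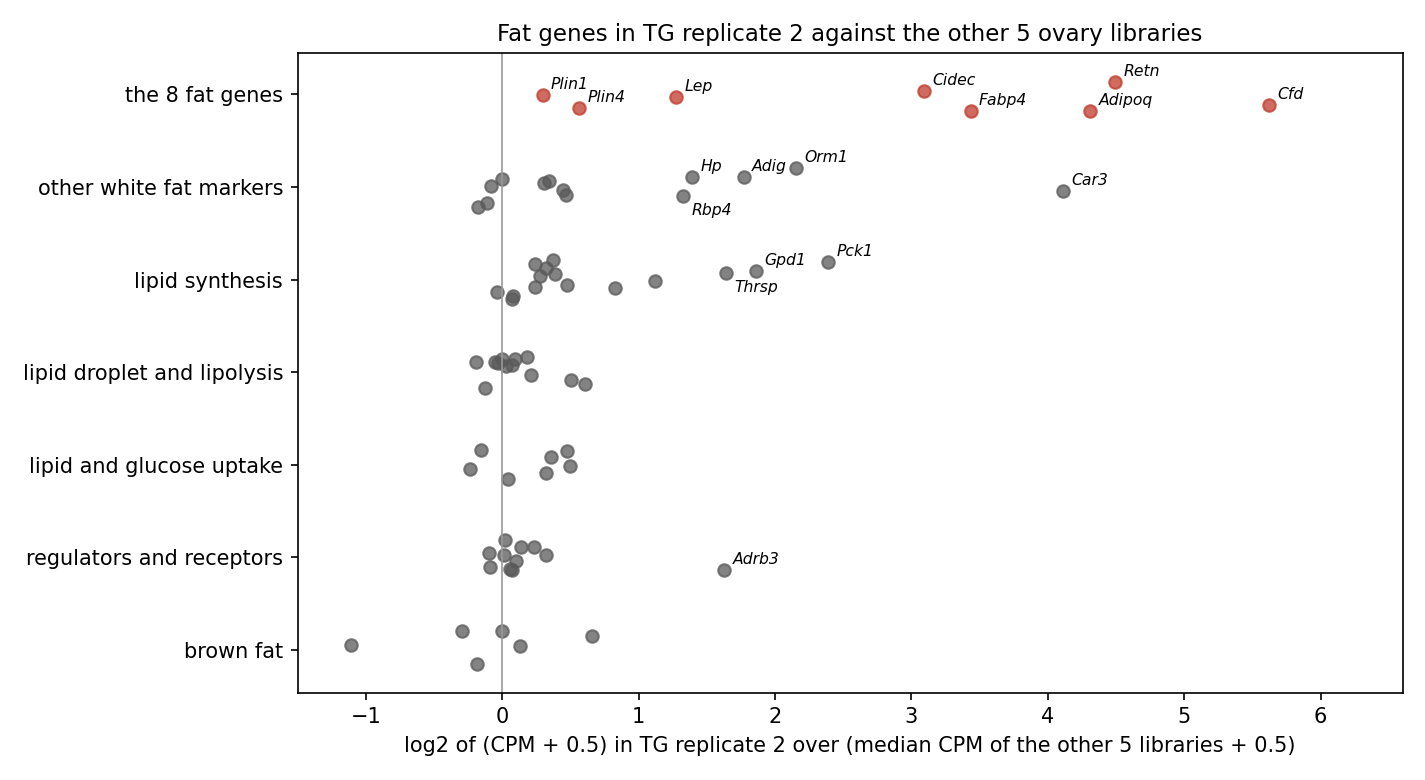
Level of each fat gene in TG2 relative to the median of the other 5 libraries, as log2 of (CPM + 0.5) over (median CPM + 0.5), by list, with the 8 genes in red on top and other fat genes in grey. Car3, Pck1, Orm1, Gpd1, Adig, Thrsp, Adrb3, Hp and Rbp4 lie to the right of Lep. The droplet and uptake lists, Plin1 and Plin4 lie below 1.

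Genes with a profile near that of the fat genes were sought over the whole table. The mean centred log2(CPM + 0.5) profile of the 4 genes that passed the filter was compared with 13459 genes of at least 1 CPM on average. The measure was the root mean square difference over the 6 libraries. That profile mixes Cfd and Fabp4, far higher in TG2, with Plin1 and Plin4, which were not, so it need not match any of them. Its TG2 value was 1.99, against 2.97 for the mean of Adipoq, Cfd, Retn, Cidec and Lep. The 10 nearest were Slc16a11 at 0.34, Gpd1 at 0.34, Rem2 at 0.36, Hp at 0.40, Wnt7b at 0.43, Pacsin1 at 0.43, Sfrp2 at 0.44, Ramp1 at 0.45, Cdo1 at 0.46 and Rbp4 at 0.46. Sfrp2, a secreted binder of WNT proteins, measured 3.00, 24.1 and 2.63 CPM in TG1 to TG3, against 6.20, 3.45 and 5.402 CPM in WT1 to WT3. Against the mean profile of Adipoq, Cfd, Retn, Cidec and Lep, a choice made after their values were seen, the nearest were Car3 at 0.24 and Cyp2e1 at 0.36. Cyp2e1, a cytochrome P450, measured 9.42 CPM in TG2, 3.41 CPM in WT3 and at most 0.916 CPM in the other 4.

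TG2 held 12 genes with at least 30 counts there and at least 5-fold above every other library. Besides Adipoq, Cfd, Fabp4, Retn and Cidec they were Car3, Pck1 and Orm1 of the fat lists, and Tnr, Rem2, Gm21320 and Mup10. The last 2 had 134 and 59.8 estimated counts in TG2 and 0 in each of the other 5 libraries, and as those counts are not whole, reads may have been divided among similar genes. Tnr, the matrix protein tenascin-R, measured 18.2 CPM in TG2 and at most 1.72 CPM elsewhere.

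None of the 10 oviduct and 10 smooth muscle markers was 2-fold above every other library in TG2, and Ovgp1 and Des were highest in WT3. Of 10 oviduct markers, Ovgp1, the oviduct secretory glycoprotein, measured 5.99, 2.93 and 1.17 CPM in TG1 to TG3, against 1.35, 0.602 and 40.9 CPM in WT1 to WT3, and the other 9 summed to between 0.930 and 2.76 CPM. The ciliated-cell regulator Foxj1 stayed at 8 counts or fewer in every library. Smooth muscle markers summed to 1712, 1461 and 1467 CPM in TG1 to TG3, against 1366, 1486 and 2266 CPM in WT1 to WT3, with Des at 126 CPM in WT3 and 40.5 CPM or less elsewhere. WT3 therefore held a modest excess of adipokine transcripts together with high Ovgp1 and Des, whereas TG2 held the large excess with neither. The part of such adjoining tissue in the fat gene levels was not tested.

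Most markers of the surface layer of the ovary ran the other way. Markers of mesothelium and surface epithelium summed to 197, 124 and 199 CPM in TG1 to TG3, against 217, 209 and 124 CPM in WT1 to WT3. TG2 and WT3 were the lowest 2 libraries for 8 of the 10 markers, an arrangement found for 9.08% of all tested genes. Upk3b, a uroplakin of mesothelium, measured 27.03, 8.5 and 27.8 CPM in TG1 to TG3, against 30.5, 32.3 and 6.99 CPM in WT1 to WT3. Wt1 and Krt8, which granulosa cells also make, were the markers outside that pattern, and 1 of them was highest in TG2. The part of granulosa cells in their levels was not tested. Endothelial sums ranged from 681 to 884 CPM in TG and from 785 to 1067 CPM in WT, macrophage sums from 258 to 271 CPM in TG and from 301 to 504 CPM in WT, erythroid sums from 194 to 216 CPM in TG and from 119 to 134 CPM in WT, and skeletal muscle sums from 5.37 to 6.33 CPM in TG and from 4.71 to 5.64 CPM in WT. Of these lists, 3 of 5 tested erythroid markers passed as higher in TG in edgeR (adjusted p under 0.05), against 0.0354% of all tested genes. Of 10 macrophage markers 1 passed as lower in TG, against 1.02% of all tested genes.

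**Figure D4:**
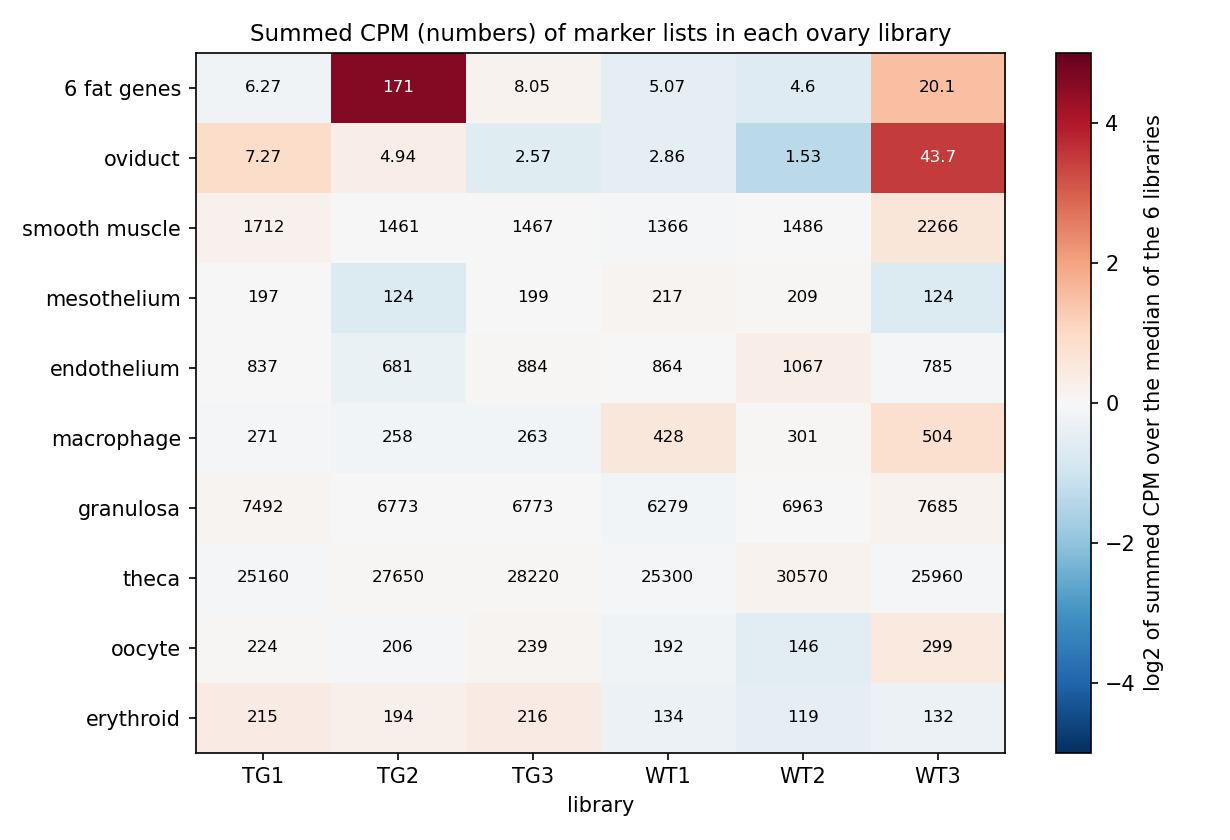
Summed CPM (numbers) of marker lists in each library, coloured by log2 of the sum over the median of the 6 libraries. The top row is the sum of Adipoq, Cfd, Retn, Cidec, Fabp4 and Lep, which is 171 CPM in TG2 and 20.1 CPM in WT3 and at most 8.05 CPM in the other 4 libraries. Oviduct markers peak in WT3 at 43.7 CPM, and mesothelium markers are lowest in TG2 and WT3.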

How the data were processed

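Total RNA of ovaries was read on the BGISEQ-500 platform, according to the labels. Build mm10 and, with no role stated, the tools RSEM 1.3.1, Bowtie2 and DESeq2 1.4.5 are listed per the submitters' processing notes; annotation, strandedness and batches are not given in the sources used here. Reads of overlapping or antisense genes can therefore not be told apart. Estimated counts per gene stand in the deposited table, of which 8.50% to 9.12% per library are not whole; those of the 8 fat genes all are. A second set of deposited columns was taken to be FPKM from the values: the length implied by count and value was 0.92 of the annotated length (median over 351 single-transcript genes). The deposited group averages were not used.

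Rounded counts went through edgeR 4.0.16 (R 4.3.3). Genes were kept by filterByExpr at its minimum count, 10, and minimum total, 15. TMM scaling gave factors of 0.990 to 1.015. The two-sided quasi-likelihood F test was adjusted by Benjamini-Hochberg over 14124 genes, with a threshold of 0.05. CPM use the effective library sizes. Each standard error was obtained from the fold change and its F statistic, and 95% intervals from t quantiles at the total degrees of freedom. The labels do not say whether animals share a litter or a day, and the p-values measure the spread between these animals. Alternatives used DESeq2 1.42.0, limma 3.58.1 (voom, and trend on log2(FPKM + 1) and log2(FPKM + 0.1) where 3 libraries reached 1 FPKM), other factors and filters, a replicate block and left-out libraries. The edgeR script was tested on simulated data. Symbols that a spreadsheet had turned into dates were restored by Entrez number for 26 genes. A symbol given to more than 1 Entrez number stayed with the one of more counts, which renamed 1 gene.

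The members and lists were chosen with earlier results of these data known. The genes named were all 8, the 4 with the smallest p and the 2 with the highest FPKM of each fat list, the gene of each marker list most concentrated in 1 library where it bears on the fat genes, and the 10 with the nearest profile; Pparg, Adig, Orm1, Pck1, Adrb3, Cyp2e1, Tnr, Gm21320, Mup10, Foxj1, Pecam1, Upk3b, Wt1 and Krt8 were named after their values were seen. Trarg1, Sncg, Nrg4, Sfrp5 and Elovl3 were also named after their values were seen. Ucp1, of the brown fat list, was not analysed here.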

Additional observations from a re-analysis of the deposited data

How the results depend on the processing

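Among the 8 fat genes and the other fat genes, 0 were called in either direction in each of the 17 alternatives, over those of them that its filter kept. Adipoq, Retn, Cidec and Lep were followed without a count filter in 12 alternatives and did not pass there. The count of all genes called higher in TG was 5, and 11 in DESeq2; it was 4 to 6 with 1 library left out, and the genes called lower were 144, and 118 to 174 with 1 library left out. DESeq2 gave no p for Adipoq, Cfd, Retn and Fabp4, which its rule for single extreme counts set aside, so it neither called nor cleared them.

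The signs of Adipoq, Cfd, Retn and Cidec depended on TG2, and Lep kept its sign. Leaving TG2 out turned Adipoq to -0.81, Cfd to -1.34, Retn to -2.63 and Cidec to -0.46, whereas leaving out WT3 alone turned none of them. Leaving out TG2 with WT3, an alternative chosen after seeing the data, gave Retn -0.50 but Adipoq 1.03, Cfd 1.09 and Cidec 1.47. With 1 library left out the log2 fold change ran from -0.81 to 4.86 for Adipoq, -1.34 to 5.50 for Cfd, -2.63 to 4.85 for Retn, -0.46 to 4.29 for Cidec, 0.15 to 2.61 for Fabp4, 0.27 to 3.58 for Lep and 0.34 to 0.64 for Plin1. Plin4 ran from -0.33 to 0.12 and turned to 0.11 without TG1, 0.003 without TG3 and 0.12 without WT2. With all 6 libraries, Cfd ran from 1.46 on log2(FPKM + 1) to 3.09 without a count filter and Fabp4 from 1.205 on log2(FPKM + 1) to 2.13, and the cause was not tested.

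The replicate numbers were not taken as pairs. Deviations from the genotype means correlated at 0.285 for TG1 with WT1, 0.104 for TG2 with WT2 and 0.089 for TG3 with WT3, and each library correlated best with its own number, a hint from the data and not from the design. With the replicate number as a block, 6 genes were called higher and 153 lower, the 8 fat genes had 0 called, and the log2 fold change was 1.73 for Cfd, 1.97 for Adipoq, 1.55 for Retn and 1.37 for Fabp4.

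Depth limits Lep, Adipoq, Retn and Cidec, which had between 0 and 8 counts in TG1, TG3, WT1 and WT2.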
